A study of Mus musculus with 6 samples.

Results

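Cytosolic calcium buffers and calcium sensors were followed in RNA bound to tagged ribosomes of parvalbumin neurons isolated from frontal cortex of C57BL6 males. The 9 genes were taken by their symbols from a table of 23306 rows: the buffers Pvalb, Calb1 and Calb2, the calmodulin genes Calm2 and Calm3, and the sensors Ncald, Hpcal4, Vsnl1 and Ncs1. Knockout mice had a conditional deletion of Fxr1, a fragile X family gene whose product binds RNA, made with PV-Cre, a Cre recombinase driven by the parvalbumin promoter, and they were set against wild type mice. Mice of the RiboTag line, a cross of the PV-Cre driver with mice that carry an HA-tagged Rpl22 allele, were used for all libraries, so that tagged ribosomes could be pulled down from Cre-expressing cells. There are 3 libraries per genotype in the series. Of these, knockout replicates 1 and 3 and wild type replicates 2 and 3 were analysed, 2 per genotype. The labels give no age and do not state whether libraries came from different mice. P-values thus rest on spread among libraries that may be of technical origin. Since Cre follows Pvalb expression, Pvalb is at once a measured gene and the gene that defines the sampled cells, in both genotypes.

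Calcium that enters a neuron is bound within moments by small proteins of the EF-hand family, named after the helix-loop-helix fold that holds the ion. Buffers such as parvalbumin and the calbindins mainly take up calcium and shape how long a calcium signal lasts. Sensors such as calmodulin and the neuronal calcium sensor proteins change shape on binding calcium and then act on enzymes, channels and membranes. Fast-spiking interneurons of the cortex are known for their parvalbumin, a slowly binding buffer, while calbindin and calretinin (Calb2) are used to mark other interneurons.

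Calm2 and Calm3 encode the same protein from different messages, and a stretch of their coding sequences is printed because it shows how reads of one gene can be told from those of another. The sequences run 5′ to 3′ from base 298 to base 417 of the coding sequence, counted from the A of the start codon (GENCODE M21 transcripts, mm10). Capitals mark the 26 of 120 positions at which they differ. Calm2 lies at chr17:87433412-87446935 (minus strand) and Calm3 at chr7:16915379-16924114 (minus strand).
Calm2: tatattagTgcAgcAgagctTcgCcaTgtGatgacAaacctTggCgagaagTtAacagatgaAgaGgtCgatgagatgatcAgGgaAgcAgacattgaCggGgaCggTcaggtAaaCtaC
Calm3: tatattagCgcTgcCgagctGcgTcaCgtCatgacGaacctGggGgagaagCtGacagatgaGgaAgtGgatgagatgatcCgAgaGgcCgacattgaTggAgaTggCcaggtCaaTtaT

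Over the whole coding sequence of 450 bases, 78 positions differed between Calm2 and Calm3, and 74 of these were the last base of a codon. Calm2 and Calm3 were identical at 82.7% of coding positions, yet their transcripts shared no exact run longer than 17 bases. The sensor genes were compared in the same way over the first 120 coding bases, where capitals mark the 48 positions that were not alike in all 4 genes. Ncald lies at chr15:37366175-37792570 (minus strand), Hpcal4 at chr4:123183227-123194701 (plus strand), Vsnl1 at chr12:11325242-11436613 (minus strand) and Ncs1 at chr2:31245823-31295989 (plus strand).
Ncald: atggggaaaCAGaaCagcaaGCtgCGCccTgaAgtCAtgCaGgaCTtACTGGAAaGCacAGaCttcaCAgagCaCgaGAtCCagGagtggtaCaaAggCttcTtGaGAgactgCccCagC
Hpcal4: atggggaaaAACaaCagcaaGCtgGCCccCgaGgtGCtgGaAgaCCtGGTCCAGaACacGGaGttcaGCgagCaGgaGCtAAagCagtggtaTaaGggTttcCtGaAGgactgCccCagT
Vsnl1: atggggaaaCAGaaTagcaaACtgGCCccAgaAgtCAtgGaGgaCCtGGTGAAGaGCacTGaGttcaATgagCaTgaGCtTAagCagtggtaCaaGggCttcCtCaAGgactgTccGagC
Ncs1: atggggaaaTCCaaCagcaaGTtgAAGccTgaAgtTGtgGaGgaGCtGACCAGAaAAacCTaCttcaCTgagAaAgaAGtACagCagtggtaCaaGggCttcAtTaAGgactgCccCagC

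Hpcal4 and Vsnl1 were the most alike of the 4 sensor genes, with 82.1% identity of coding sequence. Ncald had 67.6% identity to Hpcal4 and 69.4% to Vsnl1, and Ncs1 had 63.0% to 64.3% identity to the other sensors. The longest exact run that any pair of them shared was 24 bases. Among the buffers, Calb1 and Calb2 had 62.7% identity, and Pvalb, with a much shorter coding sequence, 29.2% to either. Of all windows of 50 bases along the longest coding transcript, 12.7% of those of Calm2 also occurred, on either strand, in transcripts of 3 other annotated genes. The share was 2.77% for Calm3 and 11.3% for Ncald, and 0 for the other 6 members. The shared Ncald windows lie mostly in Gm28221. The labels do not state how reads that match several genes were counted, or whether the counting used strand. A part of the Calm2, Calm3 and Ncald counts may thus be uncertain.

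The libraries held 9696126 to 10301280 counts. The 2 knockout libraries were the least alike pair (chi-square per degree of freedom 6.35), while knockout replicate 3 and wild type replicate 3 were the most alike (3.02), and knockout replicate 1 was nearest to wild type replicate 2 (4.02). Fxr1 had 181 and 192 counts in knockout libraries, against 954 and 1036 in wild type, the direction that the labels give. Transcripts of parvalbumin neurons were abundant: their 11 markers other than Pvalb, all with counts in every library, summed to 11070 and 11117 CPM (counts scaled by the library total) in knockout and 11393 and 11530 CPM in wild type. Some of these markers, such as Gad1, are expressed by other GABA neurons too. No library of total tissue RNA was among those analysed, so enrichment was not measured. Markers of other cells were present at lower sums, at 986 to 1081 CPM over both genotypes for the 9 excitatory neuron markers and 503 to 596 CPM for the 6 astrocyte markers. Camk2a made up 66.8% of the excitatory sum and Slc1a2 87.8% of the astrocyte sum, so the sums do not rank the cell types by content. The sums were 261 to 372 CPM for the 6 oligodendrocyte markers, 49.7 to 75.9 CPM for the 5 somatostatin neuron markers and 38.9 to 54.0 CPM for the 5 markers of vasoactive intestinal peptide and calretinin neurons. Cck alone made up 88.4% of the sum of this last list, which came to 3.74 to 7.01 CPM without it. The 7 striatal markers summed to 83.5 to 96.4 CPM, higher in both knockout libraries, and the 4 microglial markers to 12.0 to 13.5 CPM.

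Levels of different genes were compared per kilobase of exon. Calm2 was highest, with 817 ± 30.2 RPKM (CPM per kilobase; SD over all 4 libraries), followed by Calm3 at 576 ± 31.5 RPKM. The sensor Vsnl1, at 287 ± 11.3 RPKM, stood just above Pvalb, at 244 ± 10.5 RPKM. Ncs1 had 84.8 ± 1.65 RPKM and Ncald 54.4 ± 5.92 RPKM. Hpcal4 (15.96 ± 1.87 RPKM) and Calb1 (12.1 ± 1.30 RPKM) were the only neighbours in this order whose libraries overlapped. Calb2 came last, at 0.284 ± 0.105 RPKM. Per length, Pvalb was thus 20.1-fold above Calb1, and Calm2 3.35-fold above Pvalb. The order of Ncs1 and Ncald depended on the length used: with the longest annotated transcript, Ncald had 125 ± 13.6 RPKM and Ncs1 84.8 ± 1.65 RPKM, since the annotated exons of Ncald span 8581 bases in all and its longest coding transcript 3733.

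**Figure D1:**
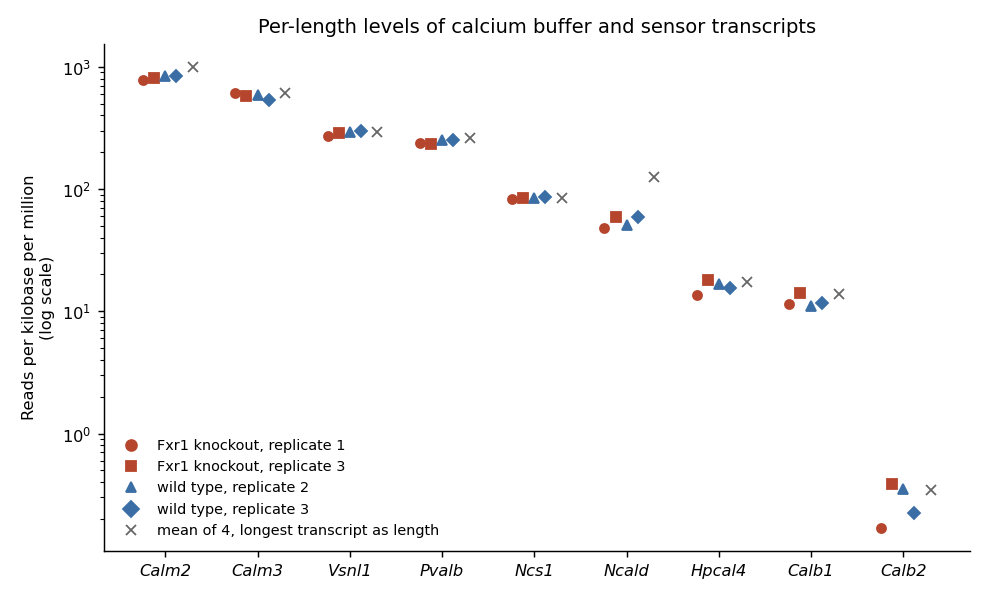
Levels per kilobase of exon (log scale) for the 9 genes in descending order, with 1 point per library and a cross for the mean of 4 with the longest transcript as length. Calm2 and Calm3 lead, Vsnl1 and Pvalb follow at 287 and 244 RPKM, and Calb2 stands far below at 0.284 RPKM.

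The first comparison concerned the buffers, with parvalbumin set against the calbindins. Pvalb, at chr15:78191114-78206400 (minus strand), had 248 and 241 CPM in knockout libraries, against 262 and 264 CPM in wild type. Both knockout libraries lay below both wild type libraries, at 93.1% of the wild type mean. The difference did not pass the test (log2 fold change −0.10, SE 0.07, 95% interval −0.25 to 0.04; edgeR's quasi-likelihood test, adjusted p = 0.998 by Benjamini-Hochberg over 12449 genes). The sum of the 11 parvalbumin neuron markers given above was also lower in both knockout libraries, but only 3 of them, Gad1, Gad2 and Erbb4, were, while Lhx6 was higher in both and 7 overlapped. Of all tested genes, 15.4% were lower in both knockout libraries and 14.8% higher. Gad1, which all GABA neurons express, made up 37.6% of the sum, and without it the genotypes overlapped, at 6825 and 7070 CPM in knockout and 7039 and 7235 CPM in wild type. The part of these markers in the Pvalb values was not tested. In pull-downs from bulk tissue, fewer sampled cells and less RNA per cell cannot be told apart.

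Calb1, at chr4:15881264-15908064 (plus strand), encodes calbindin, a fast buffer found in part of the somatostatin interneurons and in upper-layer pyramidal neurons. It measured 56.1 and 67.8 CPM in knockout and 53.6 and 57.0 CPM in wild type. Knockout replicate 3 was the highest library, and knockout replicate 1 lay between the wild type libraries. The log2 fold change was 0.16 (SE 0.10, 95% interval −0.04 to 0.37; adjusted p = 0.998 by edgeR). It was 0.28 without knockout replicate 1 and 0.03 without knockout replicate 3, and the call did not change. Calb2, at chr8:110137502-110168210 (minus strand), encodes calretinin. It had 3 and 7 counts in knockout libraries and 6 and 4 in wild type, too few to enter the test. The 10 counts in each genotype corresponded to 0.489 CPM in knockout (exact 95% Poisson interval 0.234 to 0.899) and 0.500 CPM in wild type (0.240 to 0.920), where the intervals cover counting error only. A small or moderate difference in Calb2 was not detectable at this depth. Vip and Sst, which define other interneuron classes, averaged 1.12 ± 0.354 and 9.73 ± 0.751 CPM (SD, n = 4).

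**Figure D2:**
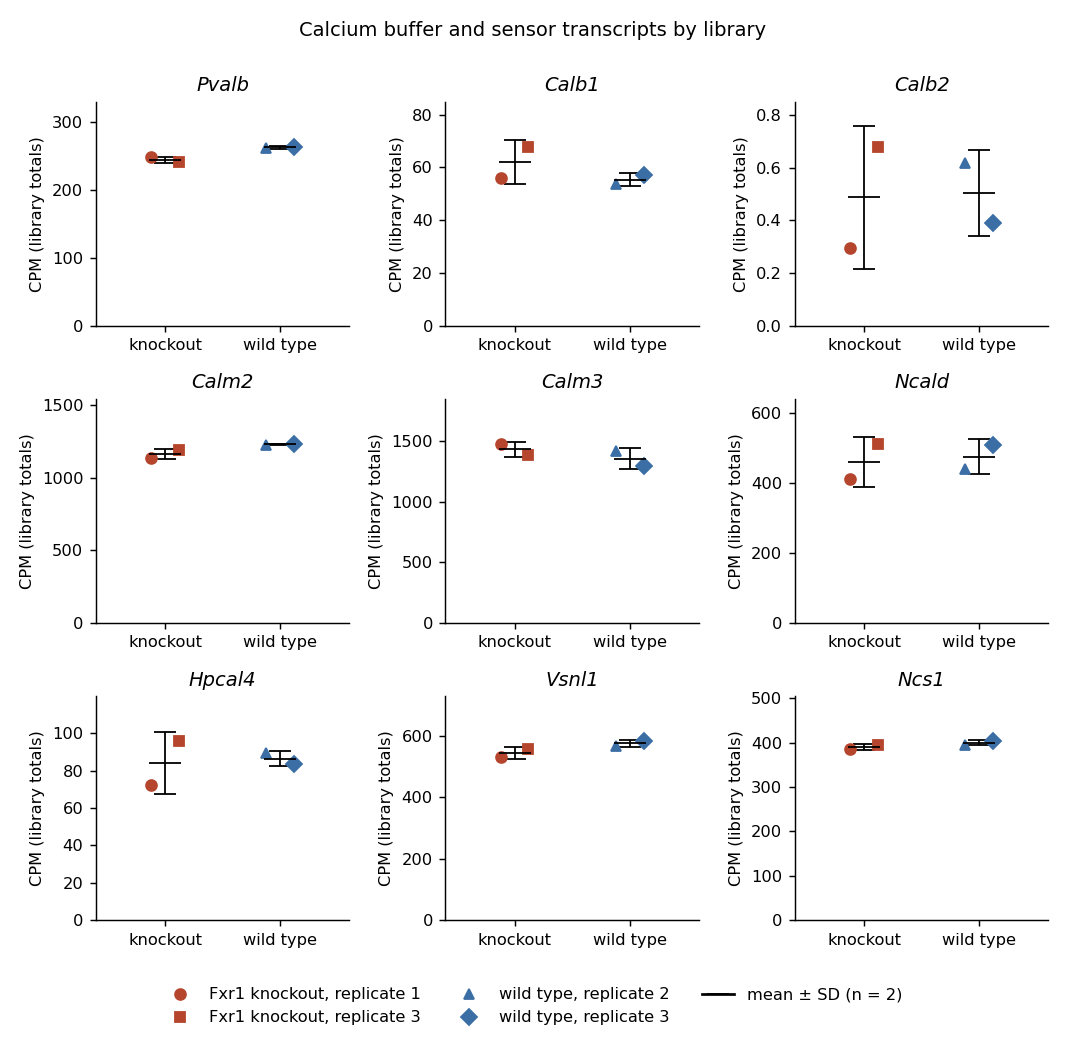
CPM, scaled by library totals, for each of the 9 genes, knockout libraries left of wild type, with mean ± SD of 2 libraries. Pvalb, Calm2, Vsnl1 and Ncs1 are lower in both knockout libraries by a few percent, and knockout replicates 1 and 3 lie far apart for Hpcal4, Ncald and Calb1. Of all tested genes, 15.4% are lower in both knockout libraries.

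The second comparison concerned the calmodulin genes, whose product is the universal calcium sensor that activates calmodulin-dependent kinases and the phosphatase calcineurin. Calm2 had 1139 and 1189 CPM in knockout, against 1230 and 1234 CPM in wild type. Calm3 had 1480 and 1389 CPM in knockout, against 1418 and 1296 CPM in wild type. Calm2 was lower in both knockout libraries, as were 15.4% of all tested genes, whereas the genotypes overlapped for Calm3. Neither passed: the log2 fold change was −0.08 for Calm2 (SE 0.06, 95% interval −0.21 to 0.05) and 0.08 for Calm3 (SE 0.07, 95% interval −0.06 to 0.22), both at an adjusted p of 0.998 by edgeR. Without knockout replicate 1 and without wild type replicate 3 the Calm3 value was 0.02 and 0.03.

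The Calm3 to Calm2 count ratio, which needs no scaling between libraries, was 1.30 and 1.17 in knockout and 1.15 and 1.05 in wild type. The groups did not overlap, and the exact two-sided permutation p was 0.333, the smallest that 2 against 2 libraries allow. Summed, Calm2 and Calm3 had 2619 and 2578 CPM in knockout and 2648 and 2531 CPM in wild type, so that the genotypes overlapped in the sum.

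The third comparison concerned the neuronal calcium sensors, which carry a fatty acid that most of them expose when calcium binds, and which then move to membranes. Vsnl1, the gene of visinin-like protein 1, had 532 and 559 CPM in knockout, against 569 and 584 CPM in wild type. Ncs1, whose product binds a phosphatidylinositol 4-kinase and the dopamine D2 receptor, had 385 and 394 CPM in knockout, against 396 and 403 CPM in wild type. Both genes were lower in both knockout libraries, as were 15.4% of all tested genes. The gap for Ncs1 was narrow, at 97.5% of the wild type mean. Vsnl1 had a log2 fold change of −0.08 (SE 0.07, 95% interval −0.22 to 0.06) and Ncs1 of −0.04 (SE 0.07, 95% interval −0.17 to 0.10), neither past the test (adjusted p = 0.998 each by edgeR).

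Ncald and Hpcal4 varied more between libraries of one genotype than between genotypes. Calm3 did so by less, differing by 0.09 (log2 CPM) within knockout and 0.13 within wild type, against 0.08 between genotypes. Calb1 did so within knockout only, at 0.28, against 0.16 between genotypes. Ncald, the gene of neurocalcin delta, had 410 and 511 CPM in knockout replicates 1 and 3, against 438 and 508 CPM in wild type replicates 2 and 3. Knockout replicate 1 and wild type replicate 2 were thus low and the other 2 libraries high. Hpcal4, the gene of hippocalcin-like protein 4, had 72.3 and 95.7 CPM in knockout, against 89.3 and 83.5 CPM in wild type, so that the lowest and the highest library were both knockout. The log2 fold change was −0.04 for Ncald (SE 0.11, 95% interval −0.28 to 0.20) and −0.04 for Hpcal4 (SE 0.10, 95% interval −0.26 to 0.18), at an adjusted p of 0.998 each by edgeR. Both signs turned without knockout replicate 1, to 0.10 for Ncald and 0.14 for Hpcal4. Without wild type replicate 3 Ncald had 0.08, and without wild type replicate 2 Hpcal4 had 0.00. The values without knockout replicate 3 were −0.20 for Ncald and −0.24 for Hpcal4.

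The 2 knockout libraries differed by 0.41 (log2) in Hpcal4 and by 0.32 in Ncald, against a median of 0.08 over 3884 genes with a mean of at least 50 CPM. A gap as large as that of Hpcal4 was seen in 1.24% of these genes, and one as large as that of Ncald in 2.81%. The wild type libraries differed by 0.10 in Hpcal4 and 0.21 in Ncald, against a median of 0.08. The 5 somatostatin neuron markers summed to 49.7 and 75.9 CPM in knockout replicates 1 and 3 and to 57.5 and 70.2 CPM in wild type replicates 2 and 3, which is the order of the libraries for Ncald too. Within that list Npy, a neuropeptide gene, had 14.8 and 39.3 CPM in knockout and 19.3 and 32.2 CPM in wild type, Sst had 8.97 to 10.6 CPM in all libraries, and Chodl was at 0 in 3 of 4 libraries. The remaining markers of the list divided by genotype: Nos1 was lower in both knockout libraries (15.6 and 15.6 CPM, against 22.2 and 20.7 CPM in wild type) and Elfn1 higher (10.03 and 10.4 CPM, against 7.01 and 7.18 CPM in wild type). A gap downward was found in 15.4% of all tested genes and one upward in 14.8%. Without Npy, the list summed to 34.9 and 36.6 CPM in knockout and 38.3 and 38.0 CPM in wild type, which is not the order for Ncald. Knockout replicate 1 and wild type replicate 2 were also lowest for some markers of other lists, such as Kcnc1, Tac1, Cck and Mbp. Most of the listed markers had another order. The oligodendrocyte markers were highest in knockout replicate 3, at 372 CPM, against 262 CPM in knockout replicate 1 and 287 and 261 CPM in wild type. The part of these markers in the Ncald, Hpcal4 and Calb1 values was not tested.

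**Figure D3:**
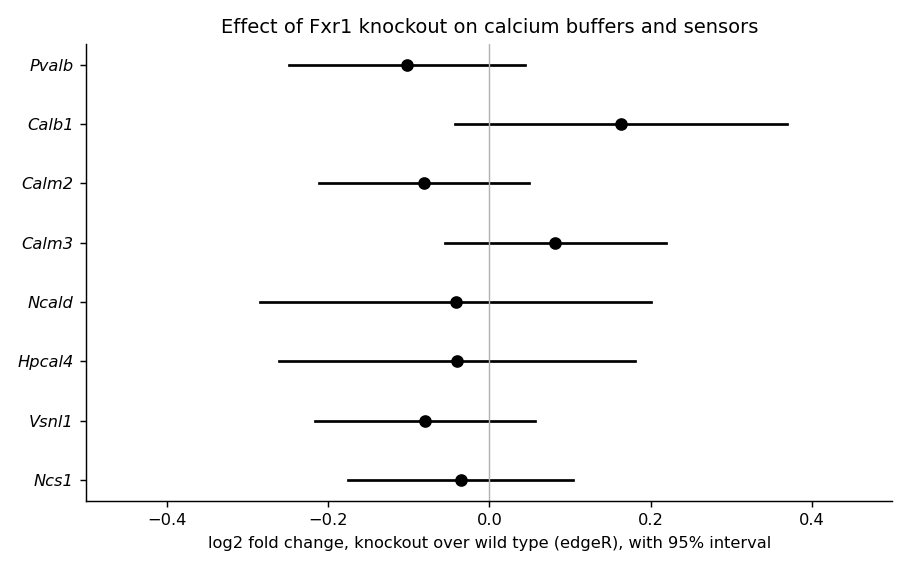
Log2 fold change of knockout over wild type by edgeR, with 95% intervals, for the 8 tested genes. Each interval includes 0, and together those of the 8 genes span −0.28 to 0.37.

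Across the 9 genes, 8 entered the test and 0 passed by edgeR, at an adjusted p of 0.998 each, where 0.0321% of all tested genes passed. The count was also 0 at an unadjusted p under 0.05, a level that 3.23% of all tested genes reached. By DESeq2's Wald test and by limma voom, 0 members passed and 0 had an unadjusted p under 0.05. Without knockout replicate 3 that level was reached by 3 members, Ncald, Hpcal4 and Calm3, beside 5.68% of all tested genes, and without knockout replicate 1 by 1 member, Calb1, beside 4.6%. Without wild type replicate 2 or 3 it was reached by 0 members, beside 3.71% and 3.17% of all tested genes. After adjustment 0 members passed by edgeR with any of the 4 libraries left out. The log2 fold change was below 0 in 6 members and above 0 in 2, with a median of −0.04, beside a median of 0.00 over all tested genes, 50.4% of which lay below 0 and 49.6% above. In 4 members, Pvalb, Calm2, Vsnl1 and Ncs1, both knockout libraries lay below both wild type libraries, and in 0 members above them. Such a gap downward was found in 15.4% of all tested genes and one upward in 14.8%. With TMM-scaled CPM the members gave the same counts, beside 15.2% of all tested genes downward and 14.9% upward. The intervals of the 8 tested members reached from −0.28, for Ncald, to 0.37, for Calb1, on the log2 scale. Each single interval was narrower than this range, as with −0.25 to 0.04 for Pvalb. For each gene, these libraries leave room for differences within its own interval and give no evidence that the levels are equal.

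Parvalbumin was then set against each other gene within a library, as a ratio of counts that does not depend on scaling between libraries or on length when the same ratio is compared across libraries. The ratio of Pvalb to Calb1 was 4.42 and 3.56 in knockout, against 4.88 and 4.63 in wild type. The ratio of Pvalb to Calm3 was 0.168 and 0.174 in knockout, against 0.184 and 0.204 in wild type. The ratio of Pvalb to Ncs1 was 0.644 and 0.612 in knockout, against 0.661 and 0.654 in wild type. These 3 ratios were lower in both knockout libraries.

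The ratios to Calm2, Vsnl1, Ncald, Hpcal4 and Calb2 overlapped between the genotypes. For Calm2 the ratio was 0.218 and 0.203 in knockout and 0.213 and 0.214 in wild type, and for Vsnl1 it was 0.466 and 0.432 in knockout and 0.460 and 0.452 in wild type. Of 9 ratios compared, that of Calm3 to Calm2 included, 4 did not overlap, each at an exact two-sided permutation p of 0.333 and 0.750 after Benjamini-Hochberg adjustment over the 9, so none could pass at this size. Of the ratios of Pvalb to 12447 other tested genes, 42.5% did not overlap and 37.7% were lower in both knockout libraries, a share close to the 3 of 8 found here. All of the ratios to Pvalb share the same Pvalb counts. As a share of the summed CPM of the 9 genes, Pvalb made up 5.74% and 5.42% in knockout, against 5.87% and 5.96% in wild type. With Calm2 and Calm3 left out of the sum, the genotypes overlapped, at 14.6% and 12.9% in knockout and 14.5% and 13.9% in wild type.

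**Figure D4:**
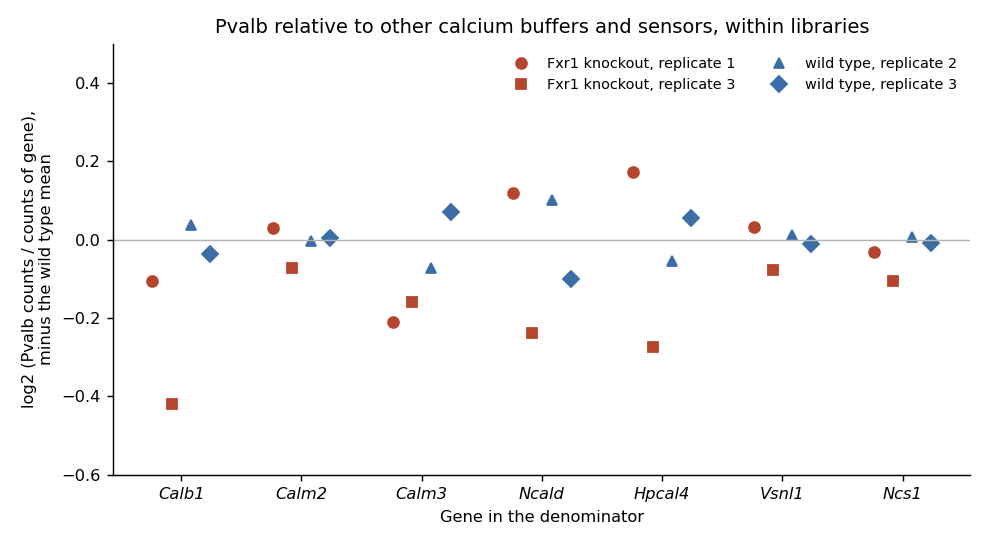
Log2 ratio of Pvalb counts to those of each other tested gene, minus the wild type mean of that ratio, with 1 point per library and knockout left of wild type. Both knockout libraries lie below both wild type libraries for Calb1, Calm3 and Ncs1, and the genotypes overlap for Calm2, Ncald, Hpcal4 and Vsnl1.

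Of 3688 other genes with at least 50 CPM in every library, the ones whose log2 CPM, centred on their own mean, lay nearest to those of Pvalb over the 4 libraries were Snx13, Ckb and Rasgrf1. Their mean absolute difference from Pvalb was 0.0051, 0.0052 and 0.0070. Ckb, the gene of brain creatine kinase, had 1369 and 1328 CPM in knockout and 1430 and 1458 CPM in wild type. Among the members, Calm2 was nearest to Pvalb, at 0.031, then Vsnl1 at 0.034 and Ncs1 at 0.036, while Calm3 was at 0.092 and Calb1, Ncald and Hpcal4 at 0.139 to 0.144. Calm2, Vsnl1 and Ncs1 ranked only 231, 314 and 375 among the 3688 genes. With 4 libraries, such likeness is a description only.

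Related genes of calcium signalling were described in 5 lists, of which 0 of 105 tested genes passed by edgeR, by DESeq2 or by limma voom. An unadjusted p under 0.05 was reached by 5 of them (4.76%) by edgeR, 3 by DESeq2 and 4 by limma voom. Of all tested genes, 3.23% reached that level by edgeR, 0.707% by DESeq2 and 3.16% by limma voom. Signs are counted below for each list, where 50.4% of all tested genes lay below 0 and 49.6% above. Genes of a list share the same 4 libraries, so their signs are not independent and were not tested as a set. The list of other EF-hand buffers and sensors had 26 tested genes, 10 with log2 fold changes above 0 and 16 below, and a median of −0.03. Its most abundant gene by CPM was Ppp3r1, the regulatory subunit of calcineurin, at 357 and 412 CPM in knockout and 385 and 387 CPM in wild type. Kcnip4, an auxiliary subunit of Kv4 potassium channels, had 46.2 and 42.1 CPM in knockout and 52.2 and 48.8 CPM in wild type (log2 fold change −0.19, SE 0.10). Hpcal1, another visinin-like sensor gene, had −0.23 (SE 0.16), Nucb1, a Golgi calcium-binding protein gene, 0.13 (SE 0.08) and S100a10, at 1.499 CPM on average, 0.49 (SE 0.46).

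Among 27 calmodulin-dependent effector genes, 6 lay above 0 and 21 below, with a median of −0.05, beside 50.4% of all tested genes below 0. Nos1, the neuronal nitric oxide synthase gene, had 15.6 and 15.6 CPM in knockout and 22.2 and 20.7 CPM in wild type. Its log2 fold change was −0.45 (SE 0.14), which missed the threshold at an adjusted p of 0.998 by edgeR. Rasgrf2, which encodes a calcium-dependent exchange factor for Ras proteins, had 232 and 224 CPM in knockout and 249 and 261 CPM in wild type (log2 fold change −0.16, SE 0.07). Camkk2, a kinase upstream of other calmodulin-dependent kinases, had 0.08 (SE 0.08) and Mylk, myosin light chain kinase, 0.31 (SE 0.32). The most abundant effector by CPM was Adcy1, a calmodulin-stimulated adenylyl cyclase, at 1289 and 1153 CPM in knockout and 1199 and 1193 CPM in wild type.

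The 19 genes of calmodulin-binding IQ-motif and related proteins had 13 values above 0 and 6 below, with a median of 0.07. Iqsec3, which encodes an exchange factor for ARF proteins at inhibitory synapses, had 386 and 352 CPM in knockout and 331 and 317 CPM in wild type (log2 fold change 0.19, SE 0.07; by edgeR the adjusted p was 0.998). Add1, an adducin gene, had 0.12 (SE 0.07), Iqsec1, the most abundant of the list by CPM, 0.07 (SE 0.07), Strn3 −0.03 (SE 0.08) and Marcks −0.10 (SE 0.15). Of 9 tested genes of partners of the neuronal calcium sensors, 6 lay above 0 and 3 below, with a median of 0.01. Chrna4, a nicotinic receptor subunit gene, had 24.9 and 19.8 CPM in knockout and 30.6 and 28.5 CPM in wild type (log2 fold change −0.40, SE 0.13; by edgeR the adjusted p was 0.998). Drd2, the dopamine D2 receptor gene, had 1.57 and 2.33 CPM in knockout and 0.928 and 1.07 CPM in wild type (log2 fold change 0.96, SE 0.46). Drd2 also belongs to the striatal markers, of which 6 of 7 were higher in both knockout libraries, beside 14.8% of all tested genes. Drd1a had 17.9 and 26.5 CPM in knockout and 23.8 and 28.8 CPM in wild type. The part of these markers in the Drd2 values was not tested. Il1rapl1 had 0.14 (SE 0.11), Adrbk1, the gene of a receptor kinase, −0.07 (SE 0.08) and Itpr1, the most abundant of the list by CPM and an inositol trisphosphate receptor gene, 0.01 (SE 0.06).

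Genes for calcium stores, uptake and extrusion gave 25 tested members, 9 above 0 and 16 below, with a median of −0.03. Slc24a2, a potassium-dependent sodium/calcium exchanger gene and the most abundant of the list by CPM, had 3290 and 3302 CPM in knockout and 3425 and 3454 CPM in wild type (log2 fold change −0.06, SE 0.06; by edgeR the adjusted p was 0.998). The plasma membrane calcium pump gene Atp2b4 had −0.18 (SE 0.13) and the exchanger gene Slc8a3 −0.12 (SE 0.09). Orai1, a store-operated channel gene at 2.91 CPM on average, had 0.36 (SE 0.32) and Efha1, a regulator of the mitochondrial calcium uniporter, 0.11 (SE 0.15).

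**Figure D5:**
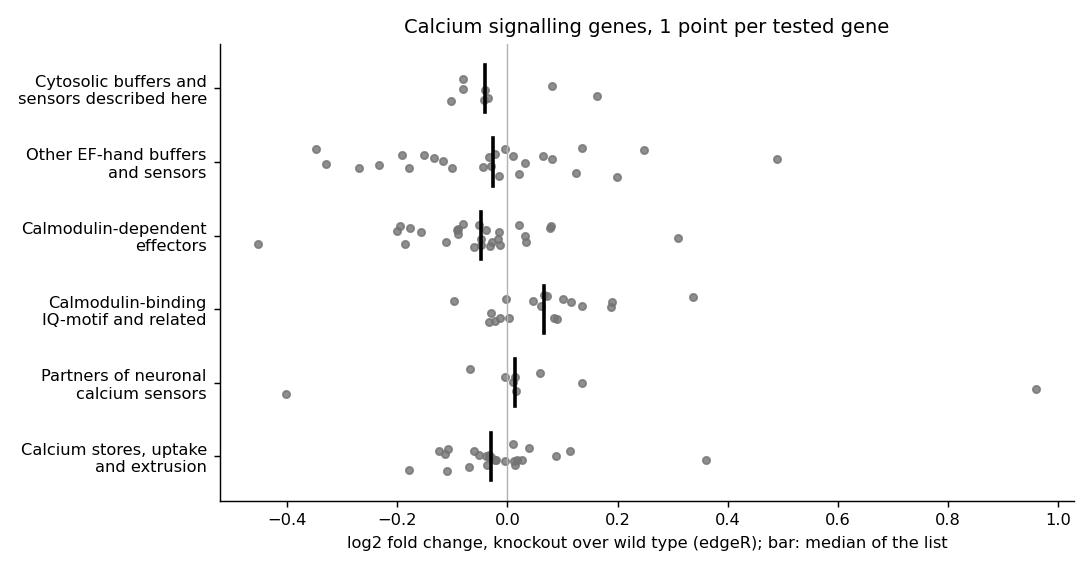
Log2 fold changes of knockout over wild type by edgeR, with 1 point per tested gene and a bar at the median, for the 8 tested buffer and sensor genes and for 5 lists of related genes. Medians range from −0.05 for calmodulin-dependent effectors to 0.07 for IQ-motif and related genes, and Drd2 stands at the right edge at 0.96.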

How the data were processed

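Per the labels' protocols, RNA from immunoprecipitated ribosomes was made into libraries with a SMARTer stranded total RNA kit. The submitters' processing notes name STAR and mm10; the counter, its annotation and its strand option were not given in the sources used here. The authors deposited counts of reads for each gene symbol, not normalized. A column was used where its heading matched the title of a single sample, which left 4 libraries; 2 columns that carry the same title were not used, so that the planned design became 2 against 2. Repeated symbols were kept apart. No pair of libraries agreed within sampling noise (chi-square per degree of freedom 3.02 to 6.35).

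CPM used library totals. Tests used edgeR 4.0.16 in R 4.3.3 (TMM scaling, the filterByExpr filter, robust quasi-likelihood fits, Benjamini-Hochberg adjustment over 12449 genes, threshold 0.05); intervals came from the moderated standard errors. On data simulated from these libraries (12443 genes tested), the test recovered 18% of genes changed 1.2-fold, 86% of those changed 1.5-fold and all changed 2-fold, with 7 false calls among 159. The simulation held 50 changed genes of each size. With its 159 calls the adjusted threshold is looser than with the 4 calls in the real libraries. Recovery in the real libraries may thus be lower than these shares. RPKM used the union of GENCODE M21 exons. Alternatives used DESeq2 1.42.0, limma 3.58.1 (voom), other scalings and filters, and each library left out. The 9 genes, the lists and the tests were chosen with earlier results of these data known. All members are named; of each list, the most abundant gene and the 2 smallest p in each direction; 1 listed gene is not reported here.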

Additional observations from a re-analysis of the deposited data

How the results depend on the processing

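The number of members past the threshold was 0 under all 11 alternatives (7 changes of scaling, test, filter or fit, and 4 libraries left out), with a smallest adjusted p of 0.772, for Ncald without knockout replicate 3. Over the 7 changes the members kept their signs. With a library left out, the log2 fold change ranged from −0.14 to −0.07 for Pvalb, from 0.03 to 0.28 for Calb1, from −0.10 to −0.06 for Calm2 and from 0.02 to 0.14 for Calm3. The range was −0.10 to −0.05 for Vsnl1 and −0.06 to −0.01 for Ncs1. The sign turned for Ncald (−0.195 to 0.0963) and Hpcal4 (−0.242 to 0.137); the cause was not tested. Calb2 entered a test only with no filter on low counts (log2 fold change −0.03, adjusted p = 0.998 by edgeR). The 4 genes past the threshold over the whole table became 1 with library totals, 2 by DESeq2, 13 with no filter, and 9 to 48 with a library left out, where the lone library of a genotype is assumed to vary like the others. The share of Pvalb became 11.4% in knockout and 11.9% in wild type per exon length, and 13.7% in knockout and 14.2% in wild type without Calm2 and Calm3. With a library left out it was 5.42% to 5.74% in knockout and 5.87% to 5.96% in wild type. No paired analysis was possible because replicate numbers only follow the order of accessions. Calb2 had 20 counts in all, too few to enter the test at this depth.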
